A study of Mus musculus with 2 samples.

Results

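Neutrophil progenitors of mouse bone marrow were picked cell by cell, from RNA levels, in 1 library of GATA-1 knock-in mice (KI, called a 2RA mutation knock-in in the series title) and 1 library of wild-type mice (WT). Both libraries held bone marrow cells sorted as Lin- Kit+, that is, cells that lack the surface markers of mature lineages and carry the receptor Kit. A cell was kept with at least 500 genes, at least 1000 UMIs (tags that each mark 1 captured RNA molecule) and at most 10% mitochondrial UMIs. Levels in single cells are UMIs per 10000 UMIs of the cell. A kept cell was a member with Mpo+Elane of at least 50, Cebpe+S100a8+S100a9+Fcnb of at least 5 and above Ly86+F13a1+Irf8+Ms4a6c, and Car1 under 5. The rule found 290 neutrophil progenitors among 11416 kept cells, 57 in the KI library and 233 in the WT library. The study asked how the marrow's cells and their gene regulation differ in the knock-in mice. The strain, age, sex and number of mice behind a library, and what 2RA changes in GATA-1, were not given in the sources used here, and no further allele or treatment was named for either group.

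Neutrophils arise from granulocyte and monocyte progenitors through promyelocytes, which pack proteases and peroxidase into primary granules, and myelocytes, which then fill secondary granules with another set of proteins. The transcription factors C/EBPα and PU.1 drive the early steps, and C/EBPε, encoded by Cebpe, is needed for the secondary granules. GATA-1 itself drives the red cell, platelet, mast cell, basophil and eosinophil lineages. Because the cells were sorted for Kit, which is lost as granulocytes mature, the later steps of the lineage lay outside the sort.

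There was 1 library per genotype, so no difference has a replicate check and no test was made. All intervals are 95% intervals, exact for shares and sums (Clopper-Pearson and Poisson) and conditional binomial for ratios, and cover counting error only. The libraries held 6640 barcodes in KI and 7471 in WT, of which 5781 in KI and 5635 in WT were kept, with a median of 5449 UMIs per kept KI cell and 9826 per kept WT cell. Among the members the gap was smaller, with medians of 7177 UMIs in KI and 9429 in WT, and sums of 428116 UMIs in KI and 2199972 in WT. A median of 1304 genes per KI cell and 1214.5 per WT cell was seen once each cell was thinned to 3000 UMIs, against 2329 in KI and 2561 in WT without thinning (2 KI and 11 WT cells were too shallow). The files shared 10 barcode sequences, and none of them was a member in either library.

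The label was checked with its markers, of which Ms4a3 alone stood outside the rule. Ms4a3, a membrane protein of granulocyte and monocyte progenitors, had a UMI in 94.5% of thinned KI members and in 100% of thinned WT members. In cells with Car1 and Klf1, the erythroid cells of the same libraries, the thinned share was 1.37% in KI and 5.56% in WT, at median depths of 14375.5 UMIs in KI and 20129.5 UMIs in WT. In the granule-rich monocyte progenitors defined below, the thinned share of Ms4a3 was 73.3% in KI and 73.2% in WT. Ms4a3 thus set the members apart from erythroid cells far more than from monocyte progenitors. RNA of later stages was scarce. No UMI of Ltf, Mmp8, Mmp9 or Ly6g, genes of secondary and tertiary granules and of mature neutrophils, was found in the members of either library, which allows up to 7.01 CPM (counts per 1000000 UMIs, here of the members) in KI and 1.36 CPM in WT. Other genes of those granules were found in a few members, with 3 UMIs of Lcn2 in KI and 63 in WT.

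Neutrophil progenitors made up 0.986% (0.748 to 1.28) of kept KI cells and 4.13% (3.63 to 4.69) of kept WT cells, a log2 ratio of -2.07 (-2.51 to -1.64). Other cells rich in Mpo or Elane were also a smaller share in KI. Granule-rich cells of the monocyte side, with Ly86+F13a1+Irf8+Ms4a6c of at least 5 and at least equal to the neutrophil sum, were 4.69% of kept KI cells and 14.3% of kept WT cells. Undecided cells, with both sums under 5, were 3.44% in KI and 8.20% in WT. Counted only among cells with Mpo+Elane of at least 50 and Car1 under 5, neutrophil progenitors were 57 of 527 KI cells, or 10.8% (8.30 to 13.8), and 233 of 1503 WT cells, or 15.5% (13.7 to 17.4). That log2 ratio was -0.52 (-0.96 to -0.10), nearer to 0 than among all kept cells. It depends on where the threshold of 5 on the neutrophil sum lies. Between 4 and 5 lay 31 KI and 40 WT cells that met the rest of the rule, and no lower threshold was tried. Shares of kept cells also move with the numbers of all other cells in the sort. A further 4 KI and 20 WT barcodes met the rule but had over 10% mitochondrial UMIs.

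**Figure D1:**
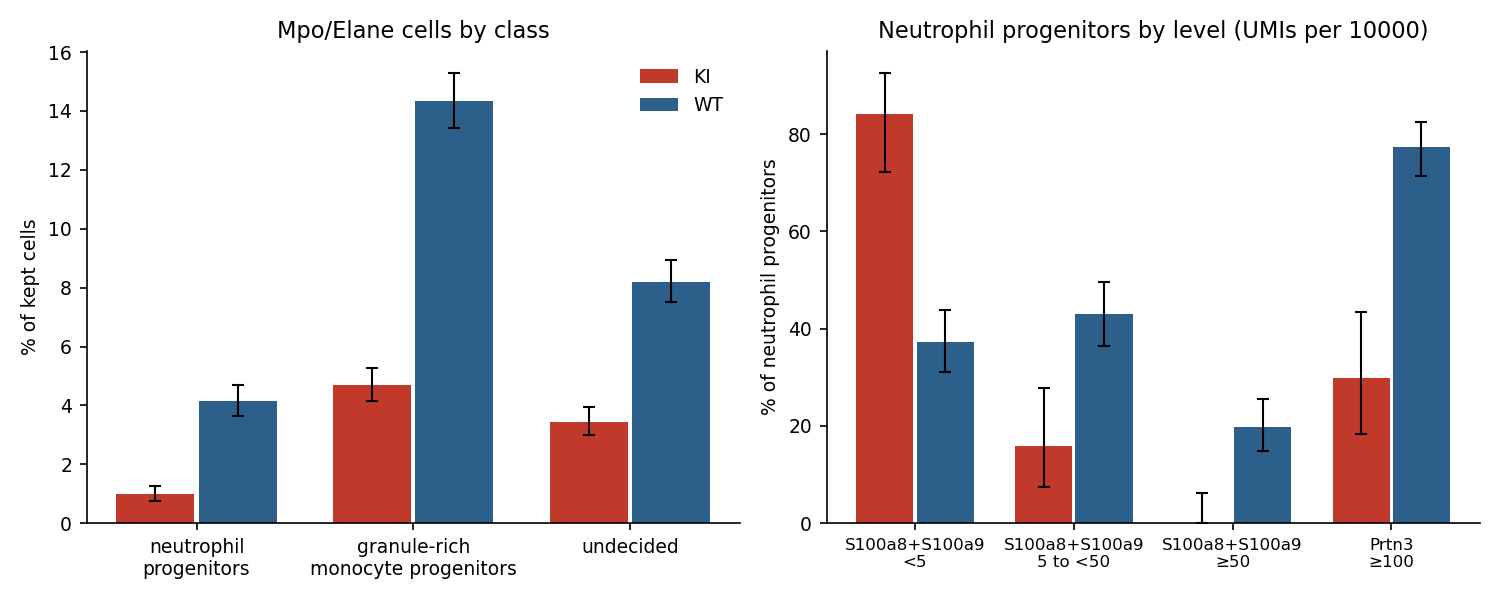
Left, share of kept cells (%) in 3 classes of cells with Mpo+Elane of at least 50 UMIs per 10000, KI (red) and WT (blue). Right, share of neutrophil progenitors (%) by the level of S100a8+S100a9 and of Prtn3. Bars are shares in 1 library and lines are exact 95% intervals for counting error. All 3 classes were smaller in KI, and no KI member had S100a8+S100a9 of 50 or more.

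The members reached the rule by different genes in each library. These values chose the cells and are given as a description. Cebpe, on chromosome 14 (54710360 to 54712174, minus strand, GENCODE M21 on mm10), ran from 0 through a median of 7.15 to 18.3 UMIs per 10000 over KI members and from 0 through 2.67 to 22.3 over WT members. S100a8, a subunit of the calcium-binding protein calprotectin, ran from 0 through a median of 0 to 37.7 over KI members and from 0 through 8.01 to 442 over WT members. Its partner S100a9 had a UMI in 6 of 57 KI members and 64 of 233 WT members. In both libraries the single cells overlapped over the lower part of the range of S100a8, and the highest cells were WT cells.

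Summed over members, Cebpe stood at 670 CPM in KI and 328 CPM in WT, and S100a8 at 292 CPM in KI and 2871 CPM in WT. S100a9 stood at 37.4 CPM in KI and 401 CPM in WT, and Fcnb, a ficolin of the innate immune system, at 4.67 CPM in KI and 42.7 CPM in WT. Cebpe was thus the only neutrophil gene of the rule that stood higher in KI. Among the granule genes of the rule, Elane (neutrophil elastase) stood at 10436 CPM in KI and 16592 CPM in WT, and Mpo (myeloperoxidase) at 8575 CPM in KI and 8067 CPM in WT. As a measure of free RNA, S100a8 had a UMI in 0.434% of thinned KI erythroid cells and 2.05% of thinned WT erythroid cells, beside 27.3% of thinned KI members and 72.1% of thinned WT members (without thinning 33.3% of KI members and 82.8% of WT members). Many members lay close to the threshold on the neutrophil sum. Between 5 and 6 lay 11 KI and 34 WT members, the lowest at 5.01 in KI and just above 5 in WT. Just outside, between 4 and 5, lay 31 KI and 40 WT cells that met the rest of the rule, the highest at 4.99 in each library.

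The 250 bases before the RefSeq start (GRCm38.p6) are shown for 2 pairs of neighbouring genes on which the results turn: S100a8 and S100a9, which mark the later members, and Elane and Prtn3, which encode serine proteases of the primary granule. Each is printed 5′ to 3′ on the strand of the gene, and capitals mark matches to letters searched on both strands for the C/EBP motif (TTNNGCAA), the PU.1 motif (GAGGAAGT) and the motif of GATA factors, spelled AGATAA. The windows are chr3:90668821-90669070 (plus) for S100a8, chr3:90695722-90695971 (minus) for S100a9, chr10:79886062-79886311 (plus) for Elane and chr10:79879417-79879666 (plus) for Prtn3.
S100a8: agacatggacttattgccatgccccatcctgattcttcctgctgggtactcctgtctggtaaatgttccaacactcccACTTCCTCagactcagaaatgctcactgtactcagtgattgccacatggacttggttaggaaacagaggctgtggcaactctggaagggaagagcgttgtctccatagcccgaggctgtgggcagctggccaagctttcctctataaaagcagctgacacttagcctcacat
S100a9: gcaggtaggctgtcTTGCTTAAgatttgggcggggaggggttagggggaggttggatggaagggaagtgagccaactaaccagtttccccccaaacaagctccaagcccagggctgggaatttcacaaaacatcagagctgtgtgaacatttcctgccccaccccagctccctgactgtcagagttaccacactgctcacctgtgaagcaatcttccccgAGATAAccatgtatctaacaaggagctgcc
Elane: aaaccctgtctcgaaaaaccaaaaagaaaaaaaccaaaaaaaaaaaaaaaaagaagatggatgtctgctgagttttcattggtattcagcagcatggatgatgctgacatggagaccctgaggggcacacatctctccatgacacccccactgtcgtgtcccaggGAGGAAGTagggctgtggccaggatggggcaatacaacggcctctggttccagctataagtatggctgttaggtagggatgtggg
Prtn3: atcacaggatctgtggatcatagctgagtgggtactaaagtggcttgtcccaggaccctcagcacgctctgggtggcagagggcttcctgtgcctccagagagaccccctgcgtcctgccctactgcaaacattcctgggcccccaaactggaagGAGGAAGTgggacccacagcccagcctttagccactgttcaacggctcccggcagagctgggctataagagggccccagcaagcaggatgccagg
The capitals in S100a8 are the PU.1 letters read on the opposite strand. In S100a9 they are the C/EBP letters on the opposite strand and, nearer the start, the GATA letters. Elane and Prtn3 each hold the PU.1 letters as printed. Of 27025 RefSeq windows of this length, 9.55% held the C/EBP letters, 10.3% the GATA letters and 2.44% the PU.1 letters. A match says only that these letters are there.

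The members differed between the libraries by Prtn3, which the rule did not use, and by S100 RNA, which it did use and which is given here as a description. S100a8+S100a9 lay under 5 in 48 of 57 KI members (84.2%, 72.1 to 92.5) and 87 of 233 WT members (37.3%, 31.1 to 43.9). It lay from 5 to under 50 in 9 KI and 100 WT members, and at 50 or more in 0 KI and 46 WT members. Prtn3 encodes proteinase 3 and lies on chromosome 10 beside Elane. It ran from 8.01 through a median of 79.8 to 242 UMIs per 10000 over KI members and from 4.01 through 154 to 332 over WT members. It was at 100 or more in 17 of 57 KI members (29.8%, 18.4 to 43.4) and 180 of 233 WT members (77.3%, 71.3 to 82.5). Most KI members were thus low in both Prtn3 and S100 RNA, and most WT members were high in Prtn3.

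**Figure D2:**
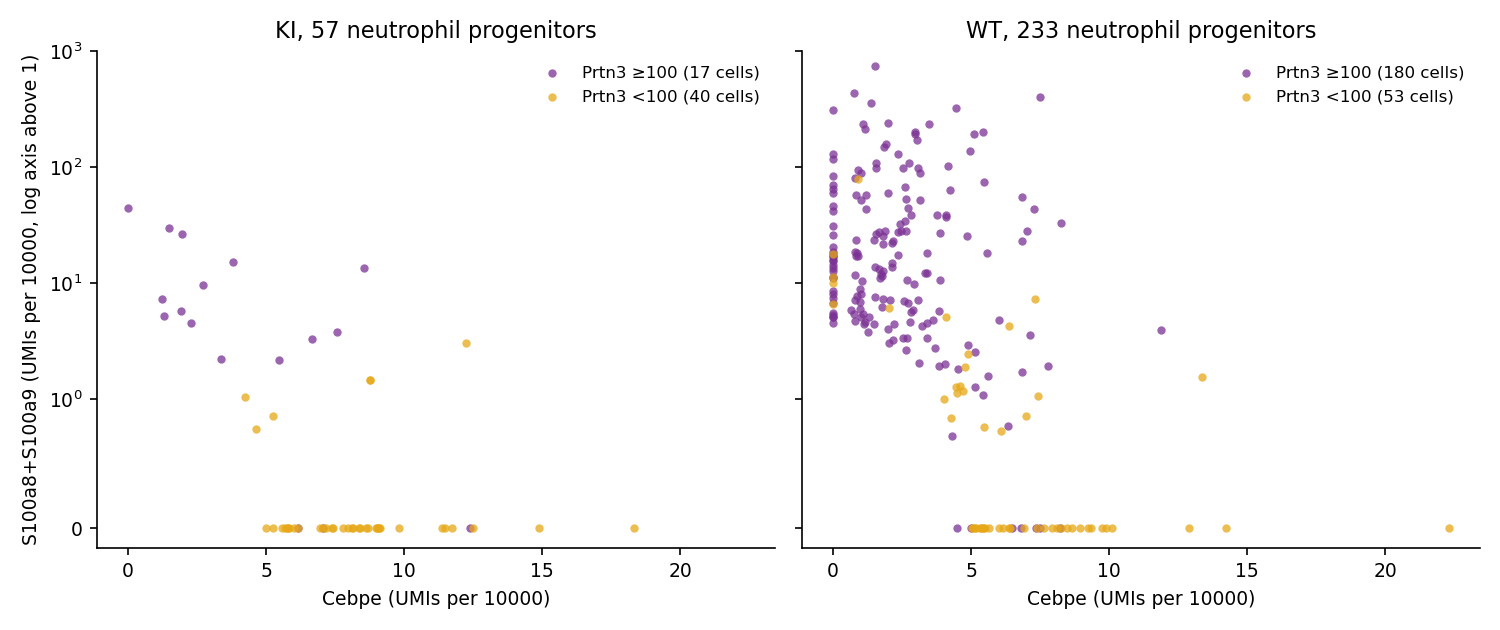
Cebpe (x axis, UMIs per 10000) against S100a8+S100a9 (y axis, UMIs per 10000, logarithmic above 1) for each of 57 KI (left) and 233 WT (right) neutrophil progenitors. Purple points have Prtn3 of at least 100 and yellow points have less. The KI cells lie mostly at the bottom right, with Cebpe of 5 or more in 45 of 57 KI members and 64 of 233 WT members.

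Over all genes, KI members carried more genes past 1.5-fold above WT than below. Of 4939 genes with a mean of at least 20 CPM over both libraries, 879 (17.8%) were past 1.5-fold higher in KI and 318 (6.44%) lower. The median gene had a log2 ratio of 0.16, and of 0.15 when the genes of the rule were left out of the scaling. Centred on that median, 524 genes (10.6%) were higher and 527 (10.7%) lower, so that 49.9% of the genes past 1.5-fold were higher in KI in place of 73.4%. With 57 KI cells, counting error alone carries weakly expressed genes past 1.5-fold. Each count below is to be read against these percentages, and leaves out the genes of the rule.

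Primary granule genes, which encode the proteins packed by promyelocytes, were lower in KI as a sum, for the most part through Prtn3. The 18 genes outside the rule summed to 22027 CPM in KI and 28221 CPM in WT, a log2 ratio of -0.36 (-0.39 to -0.33). Prtn3 took the largest part of the gap, at 9951 CPM in KI and 14384 CPM in WT (-0.53, -0.58 to -0.49). Without Prtn3 the sum stood at 12076 CPM in KI and 13837 CPM in WT (-0.20, -0.24 to -0.15). Ctsg, the serine protease cathepsin G, stood at 4482 CPM in KI and 4288 CPM in WT (0.06, -0.01 to 0.13). The proteases of these granules therefore did not share 1 ratio between the libraries.

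Of 14 primary granule genes counted, 0 were past 1.5-fold higher and 2 lower, with a median of -0.35 beside 0.16 for all genes. The lower ones, named after their values were seen, were Prss57, a neutrophil serine protease, at 213 CPM in KI and 417 CPM in WT (-0.97, -1.30 to -0.66), and Ctsc, which activates the granule proteases, at 23.4 CPM in KI and 35.5 CPM in WT (-0.60, -1.72 to 0.35). Clec5a, a receptor of myeloid cells, lay under the level for counting, with 7.01 CPM in KI and 32.3 CPM in WT (-2.20, -4.51 to -0.60). In granule-rich monocyte progenitors the same sum had a log2 ratio of 0.04 (0.02 to 0.05), and Prtn3 one of -0.06. Without Prtn3 the sum had one of 0.16 (0.14 to 0.19) there.

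Later granule genes, which include proteins of the secondary granule, stood lower in KI. The genes outside the rule summed to 724 CPM in KI and 1451 CPM in WT (-1.003, -1.18 to -0.83). Of 5 counted, 0 were past 1.5-fold higher and 3 lower, with a median of -0.70. Wfdc21, a small secreted protein of the whey acidic protein family, stood at 37.4 CPM in KI and 249 CPM in WT (-2.73, -3.55 to -2.02), with a UMI in 10 of 57 KI members and 139 of 233 WT members. Pglyrp1, a bactericidal peptidoglycan recognition protein, stood at 140 CPM in KI and 375 CPM in WT (-1.42, -1.82 to -1.04). Hp, or haptoglobin, stood at 299 CPM in KI and 486 CPM in WT (-0.70, -0.98 to -0.44). All 3 were lower in the KI library by more than their counting error.

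At the low end of detection, Lcn2, the iron-chelator-binding lipocalin, had 3 UMIs in KI and 63 in WT, or 7.01 CPM in KI and 28.6 CPM in WT. Camp, the cathelicidin precursor, had 0 UMIs in KI and 26 in WT. That is 11.8 CPM in WT, beside 7.01 CPM for the floor of 3 UMIs in KI. In granule-rich monocyte progenitors the sum of later granule genes had a log2 ratio of -0.10 (-0.18 to -0.01).

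Within members of the same Prtn3 class, some granule genes were near level between the libraries and others were not. Among members with Prtn3 of 100 or more (17 KI and 180 WT cells), the primary granule sum without Prtn3, the gene of the division, stood at 16644 CPM in KI and 14932 CPM in WT (0.16, 0.09 to 0.22), and Elane, a gene of the rule, stood at 19506 CPM in KI and 19550 CPM in WT. Hp stood at 598 CPM in KI and 582 CPM in WT there (0.04, -0.31 to 0.37). Thus elastase and haptoglobin RNA were near equal in the libraries in the high-Prtn3 cells. Wfdc21 and Pglyrp1 were not. Wfdc21 stood at 112 CPM in KI and 321 CPM in WT (-1.52, -2.37 to -0.78). Pglyrp1 stood at 202 CPM in KI and 443 CPM in WT (-1.13, -1.75 to -0.58). The high-Prtn3 KI cells thus held less Wfdc21 and Pglyrp1 RNA than WT cells of that class, while Ctsg was higher at 6156 CPM in KI and 4635 CPM in WT (0.41, 0.30 to 0.51). S100a8, a gene of the rule, stood at 896 CPM in KI and 3767 CPM in WT there, given as a description.

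Among members with Prtn3 under 100 (40 KI and 53 WT cells), the primary granule sum without Prtn3 stood at 9998 CPM in KI and 10730 CPM in WT (-0.10, -0.17 to -0.04). Elane stood at 6311 CPM in KI and 8190 CPM in WT (-0.38, -0.45 to -0.30). Pglyrp1 stood at 112 CPM in KI and 183 CPM in WT (-0.71, -1.32 to -0.13). Wfdc21 had 1 UMI in KI and 25 in WT (-3.68, -9.04 to -1.07), and the later granule sum stood at 568 CPM in KI and 803 CPM in WT (-0.50, -0.76 to -0.24). Prss57 stood at 153 CPM in KI and 244 CPM in WT (-0.68, -1.19 to -0.18). All of these were lower in the KI library by more than their counting error, as they were over all members. The Prtn3 classes describe stage only as far as 1 gene can, and the threshold of 100 was chosen after the data were seen.

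**Figure D3:**
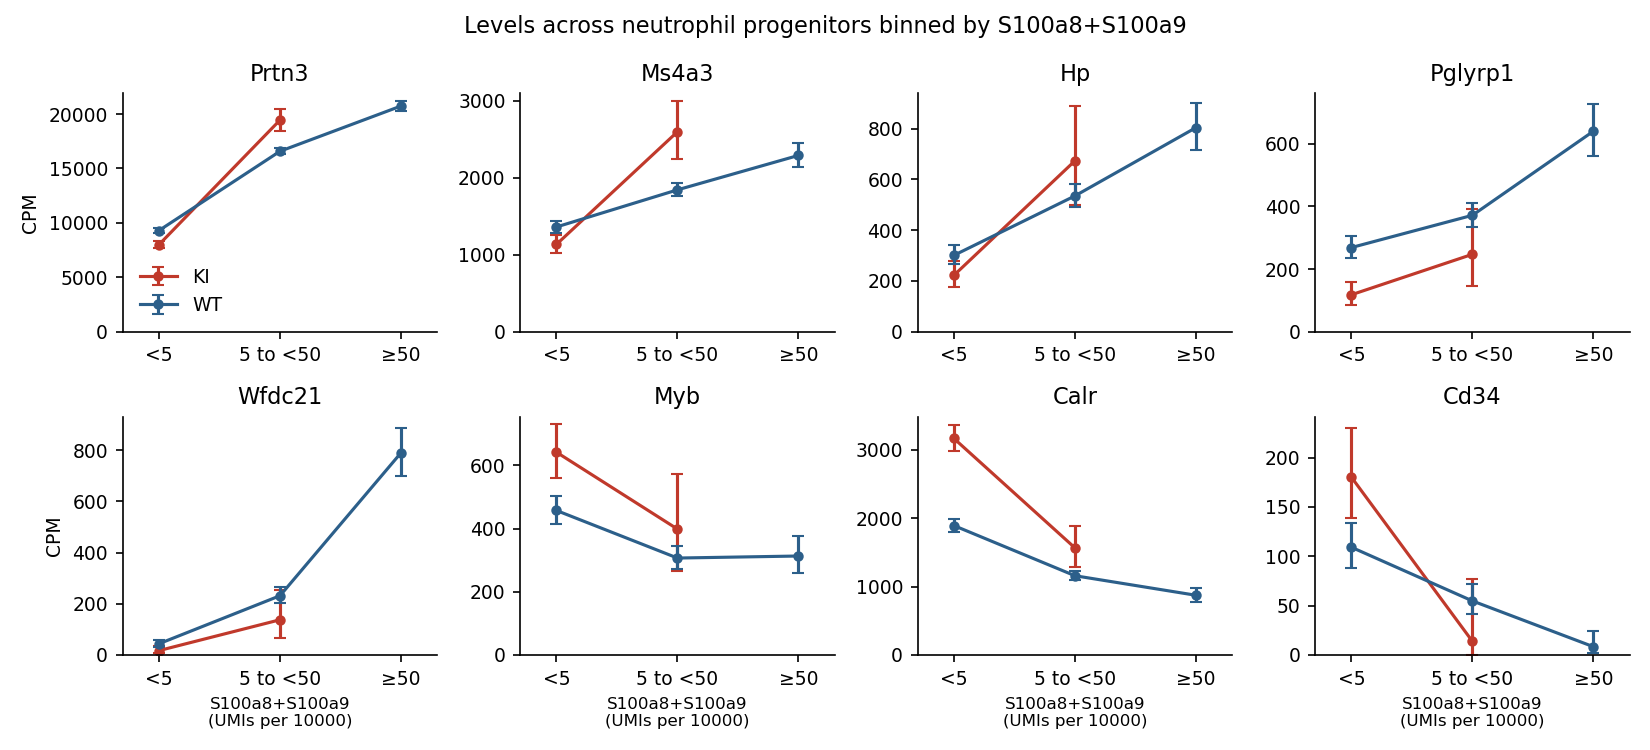
Levels (CPM) of 8 genes in neutrophil progenitors binned by S100a8+S100a9 (UMIs per 10000), KI in red and WT in blue, with exact Poisson 95% intervals. The bins hold 48, 9 and 0 KI cells and 87, 100 and 46 WT cells, low to high. In WT the granule genes were higher and Calr and Cd34 lower in the higher bins, and in the lowest bin Pglyrp1 was lower and Myb, Calr and Cd34 higher in KI than in WT.

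Transcription factors of granulocyte and monocyte fate stood somewhat higher in KI. Outside the rule they summed to 2497 CPM in KI and 1927 CPM in WT (0.37, 0.28 to 0.47). Of 19 counted, 7 were past 1.5-fold higher and 1 lower, with a median of 0.36. Myb, the factor of immature blood progenitors, stood at 600 CPM in KI and 367 CPM in WT (0.71, 0.50 to 0.91). Spi1, which encodes PU.1, stood at 287 CPM in KI and 238 CPM in WT (0.27, -0.02 to 0.56). Of these, Myb lay past 1.5-fold and Spi1 did not.

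Cebpa, which encodes C/EBPα and was named after its values were seen, stood at 77.1 CPM in KI and 40.9 CPM in WT (0.91, 0.29 to 1.504). Cebpb, the C/EBP factor of emergency granulopoiesis, was the 1 gene past 1.5-fold lower, at 103 CPM in KI and 165 CPM in WT (-0.68, -1.16 to -0.22). In high-Prtn3 members Cebpa stood at 105 CPM in KI and 35.0 CPM in WT (1.58, 0.62 to 2.44, from 14 and 57 UMIs), and Myb at 456 CPM in KI and 328 CPM in WT (0.48, 0.07 to 0.86). In members with Prtn3 under 100, Cebpa had a log2 ratio of 0.16 (-0.73 to 1.02) and Myb of 0.47 (0.20 to 0.74). The sum of the list was nearer to 0 within the classes than over all members, with 0.10 (-0.03 to 0.23) under 100 and 0.26 (0.08 to 0.44) at 100 or more.

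Genes of stem and multipotent cells stood higher in KI over all members. They summed to 455 CPM in KI and 225 CPM in WT (1.01, 0.77 to 1.26), and 6 of 6 counted were past 1.5-fold higher, with a median of 1.05. Cd34, a surface sialomucin of early progenitors, stood at 152 CPM in KI and 68.6 CPM in WT (1.15, 0.70 to 1.57). Ifitm1, a small membrane protein induced by interferon, stood at 79.4 CPM in KI and 37.7 CPM in WT (1.07, 0.45 to 1.67). Msi2, an RNA-binding protein of stem cells, stood at 46.7 CPM in KI and 23.6 CPM in WT (0.98, 0.16 to 1.75). The gap was smaller within Prtn3 classes, where the sum had log2 ratios of 0.28 (-0.01 to 0.56) under 100 and 0.29 (-0.41 to 0.93) at 100 or more. In granule-rich monocyte progenitors it had one of 0.29 (0.20 to 0.38).

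Cell cycle genes differed by phase. S phase genes summed to 3427 CPM in KI and 3033 CPM in WT (0.18, 0.09 to 0.26), with 4 of 33 counted past 1.5-fold higher and 2 lower and a median of 0.23. The higher ones were Pcna, Nasp, Uhrf1 and Pola1, and Gmnn was among the lower, all named after their values were seen. Mcm6, a subunit of the replicative helicase, stood at 243 CPM in KI and 176 CPM in WT (0.46, 0.14 to 0.78). The share of genes past 1.5-fold was below that of all genes on the higher side.

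G2 and M phase genes summed to 4756 CPM in KI and 5612 CPM in WT (-0.24, -0.31 to -0.17). Of 37 counted, 1 was past 1.5-fold higher and 8 lower, with a median of -0.16 beside 0.16 for all genes. Hmgb2, a chromatin protein of dividing cells, stood at 995 CPM in KI and 1648 CPM in WT (-0.73, -0.88 to -0.58), and Hmmr, a spindle protein, at 23.4 CPM in KI and 48.2 CPM in WT (-1.04, -2.15 to -0.11). The gap in the sum lay in the high-Prtn3 members, where the sum stood at 3519 CPM in KI and 5730 CPM in WT (-0.70, -0.84 to -0.57). In members with Prtn3 under 100 it stood at 5318 CPM in KI and 5278 CPM in WT (0.01, -0.08 to 0.10). Hmgb2 was lower in KI in both classes, with log2 ratios of -0.32 (-0.51 to -0.12) under 100 and -1.11 (-1.40 to -0.83) at 100 or more. The difference between the classes was not tested.

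Among G1 cyclins and cell-cycle inhibitors, 2 of 7 counted were past 1.5-fold higher and 0 lower. They were Ccnd2, or cyclin D2, at 166 CPM in KI and 83.6 CPM in WT (0.99, 0.57 to 1.39), and Cdkn1b, which encodes the inhibitor p27 and was named after its value was seen, at 39.7 CPM in KI and 15.5 CPM in WT (1.36, 0.43 to 2.24). Ccnd2 was also higher in both Prtn3 classes, with log2 ratios of 0.80 (0.24 to 1.37) under 100 and 0.87 (0.09 to 1.58) at 100 or more.

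Receptor and surface genes of neutrophil precursors were mixed. Of 8 cytokine receptors counted, 2 (Il3ra and Ifngr2) were past 1.5-fold higher and 1 lower, and their sum had a log2 ratio of -0.04 (-0.21 to 0.13). The lower one was Csf3r, the receptor of the granulocyte growth factor G-CSF, at 21.02 CPM in KI and 43.2 CPM in WT (-1.04, -2.21 to -0.05, from 9 and 95 UMIs). Kit stood at 79.4 CPM in KI and 82.3 CPM in WT (-0.05, -0.62 to 0.48). The gene of the sorted receptor thus differed by less than its counting error.

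Phagocyte oxidase genes, which make the respiratory burst, summed to 2441 CPM in KI and 2953 CPM in WT (-0.27, -0.37 to -0.18), with 2 of 8 counted higher (Ncf4 and Vav1) and 0 lower. Within Prtn3 classes the sum had log2 ratios of 0.10 (-0.05 to 0.24) under 100 and -0.05 (-0.20 to 0.09) at 100 or more. Both intervals reach 0, so the gap over all members was not seen within the classes. Ncf4, a cytosolic oxidase subunit, stood at 145 CPM in KI and 84.1 CPM in WT (0.78, 0.35 to 1.21), and was also higher in granule-rich monocyte progenitors (1.06). Of 12 adhesion and migration genes counted, 2 (Itga4 and Cd34) were higher and 1 lower. The lower one was Ly6c2, a surface antigen of granulocyte and monocyte precursors with close copies in its family, at 406 CPM in KI and 820 CPM in WT (-1.01, -1.24 to -0.79). In high-Prtn3 members Ly6c2 stood at 1031 CPM in KI and 1013 CPM in WT (0.02, -0.24 to 0.28), and in members with Prtn3 under 100 at 122 CPM in KI and 269 CPM in WT (-1.14, -1.70 to -0.60).

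Among genes of protein folding and export, Calr and Hspa5 stood higher in KI over all members, and the sum of the rest of the list did not. Secretory pathway and unfolded protein response genes summed to 12999 CPM in KI and 11270 CPM in WT (0.21, 0.16 to 0.25). Of 24 counted, 2 were past 1.5-fold higher and 0 lower, with a median of 0.07, below the 0.16 of all genes. Without Calr and Hspa5 the sum stood at 8834 CPM in KI and 9061 CPM in WT (-0.04, -0.09 to 0.01). Within Prtn3 classes that sum had log2 ratios of 0.05 (-0.03 to 0.12) under 100 and 0.15 (0.07 to 0.23) at 100 or more. In granule-rich monocyte progenitors it had one of 0.08 (0.06 to 0.11). Calr, or calreticulin, a calcium-binding chaperone of the endoplasmic reticulum (chromosome 8, 84841850 to 84846934, minus strand), ran from 7.95 through a median of 29.4 to 66.1 UMIs per 10000 over KI members and from 0 through 12.0 to 56.8 over WT members. It summed to 2894 CPM in KI and 1402 CPM in WT (1.05, 0.95 to 1.14), and was higher in both Prtn3 classes, with log2 ratios of 0.63 (0.51 to 0.75) under 100 and 0.78 (0.59 to 0.97) at 100 or more. Hspa5, the chaperone BiP, stood at 1271 CPM in KI and 807 CPM in WT (0.66, 0.51 to 0.79). In granule-rich monocyte progenitors Calr had a log2 ratio of 0.50 and Hspa5 of 0.49, so a KI excess of both was not limited to the neutrophil side.

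Immediate early genes, which are transcribed soon after a stimulus, summed to 1913 CPM in KI and 1456 CPM in WT (0.39, 0.28 to 0.51). Of 13 counted, 4 were past 1.5-fold higher and 1 lower. The higher ones were Btg2, Egr1, Ier3 and Zfp36l2 and the lower one Klf6. Btg2, an antiproliferative gene that p53 also induces, had 56 UMIs in 23 KI members and 88 UMIs in 51 WT members (1.71, 1.20 to 2.21). Within members of Prtn3 under 100 the sum was level, at 2372 CPM in KI and 2370 CPM in WT. In high-Prtn3 members it was lower in KI, at 904 CPM in KI and 1134 CPM in WT (-0.33, -0.60 to -0.06).

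Interferon response genes showed no common side. Of 11 counted, 3 (Ifi203, Ifitm1 and Mndal) were past 1.5-fold higher and 1 lower, with a median of 0.11. Bst2, or tetherin, stood at 28.0 CPM in KI and 119 CPM in WT (-2.08, -3.05 to -1.25), and its log2 ratio in granule-rich monocyte progenitors was -1.92. Of 4 p53 targets counted, 1 was higher, which was Btg2, and 0 were lower.

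The granule rule also let in cells with RNA of other lineages. Eosinophil granule RNA was concentrated in a few members. Prg2, the major basic protein of eosinophils, had 68 UMIs in KI, 65 of them in 2 cells, and 2026 UMIs in WT, 2022 of them in 7 cells. Prg2 of 10 or more UMIs per 10000 was found in 2 KI and 7 WT members, or 3.51% of KI and 3.004% of WT members. Summed over members it stood at 159 CPM in KI and 921 CPM in WT (-2.54, -2.91 to -2.19), a gap that rests on those WT cells. Outside those 9 cells Prg2 had 3 UMIs in KI and 4 in WT, too few to give a direction (1.93, -0.84 to 4.50). Ear6, an eosinophil-associated ribonuclease with close copies, had 20 UMIs in KI and 0 in WT, a log2 ratio of 5.10 with WT set to the floor of 3 UMIs. Outside those 9 cells the whole eosinophil list had 15 UMIs in each library, or 35.9 CPM in KI and 7.05 CPM in WT (2.35, 1.21 to 3.48). Of the 15 in KI, 9 were of Prg3 and 3 of Prg2. Most Ear6 UMIs thus lay in the 2 KI cells rich in Prg2.

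Basophil and mast cell RNA was spread more widely. Cpa3, the mast cell carboxypeptidase, had a UMI in 28 of 57 KI members (49.1%) and 40 of 233 WT members (17.2%), and stood at 241 CPM in KI and 130 CPM in WT (0.89, 0.55 to 1.22). It lay nearly all in the members with Prtn3 under 100, where it stood at 339.8 CPM in KI and 487 CPM in WT, so its ratio turned there. Prss34, a basophil protease, had 0 UMIs in KI and 107 in WT, of which 100 were in 2 cells. The whole list summed to 484 CPM in KI and 455 CPM in WT (0.09, -0.14 to 0.30). In single cells the list reached a level of 10 or more in 12 of 57 KI members (21.1%, 11.4 to 33.9). It did so in 24 of 233 WT members (10.3%, 6.71 to 14.9), and these intervals overlap. Within members of Prtn3 under 100 it stood at 622 CPM in KI and 1239 CPM in WT (-0.99, -1.24 to -0.76). With Prtn3 of 100 or more it stood at 179 CPM in each library (-0.001, -0.67 to 0.60). The sum was thus not level under 100.

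Markers of the remaining lineages were low. Erythroid markers outside the rule summed to 135 CPM in KI and 86.8 CPM in WT, megakaryocyte markers to 35.0 CPM in KI and 13.6 CPM in WT, and lymphoid markers to 67.7 CPM in KI and 79.5 CPM in WT. Gata1 itself had 4 UMIs in KI members and 8 in WT members, out of 428116 UMIs in KI and 2199972 in WT. After thinning it had a UMI in 3.64% (0.443 to 12.5) of KI members and 0.450% (0.0114 to 2.48) of WT members. These intervals overlap, and the counts are too few to give a direction. Hbb-bs, a beta-globin gene, had a UMI in 10.9% of thinned KI members and 0% of thinned WT members, where the interval reaches 1.65%. In thinned erythroid cells it had one in 4.99% of KI and 0.732% of WT cells. For this gene the share in KI members was thus no lower than in the cells that make globin. Hba-a1, an alpha-globin gene, went the other way. It had a UMI in 0% of thinned KI members and 0.450% of thinned WT members, beside 7.30% of KI and 3.88% of WT erythroid cells. Where the globin UMIs came from was not tested. Monocyte and dendritic markers outside the rule summed to 427 CPM in KI and 513 CPM in WT (-0.26, -0.50 to -0.04). Slpi, a protease inhibitor of myeloid cells, was the 1 of 4 counted past 1.5-fold, at 100 CPM in KI and 210 CPM in WT (-1.06, -1.55 to -0.61). The gap of Slpi in CPM was wider than that of the whole sum, so the list without Slpi was not lower in KI. The part of these cells in the other ratios was not tested, except that the values without the Prg2 cells are given.

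**Figure D4:**
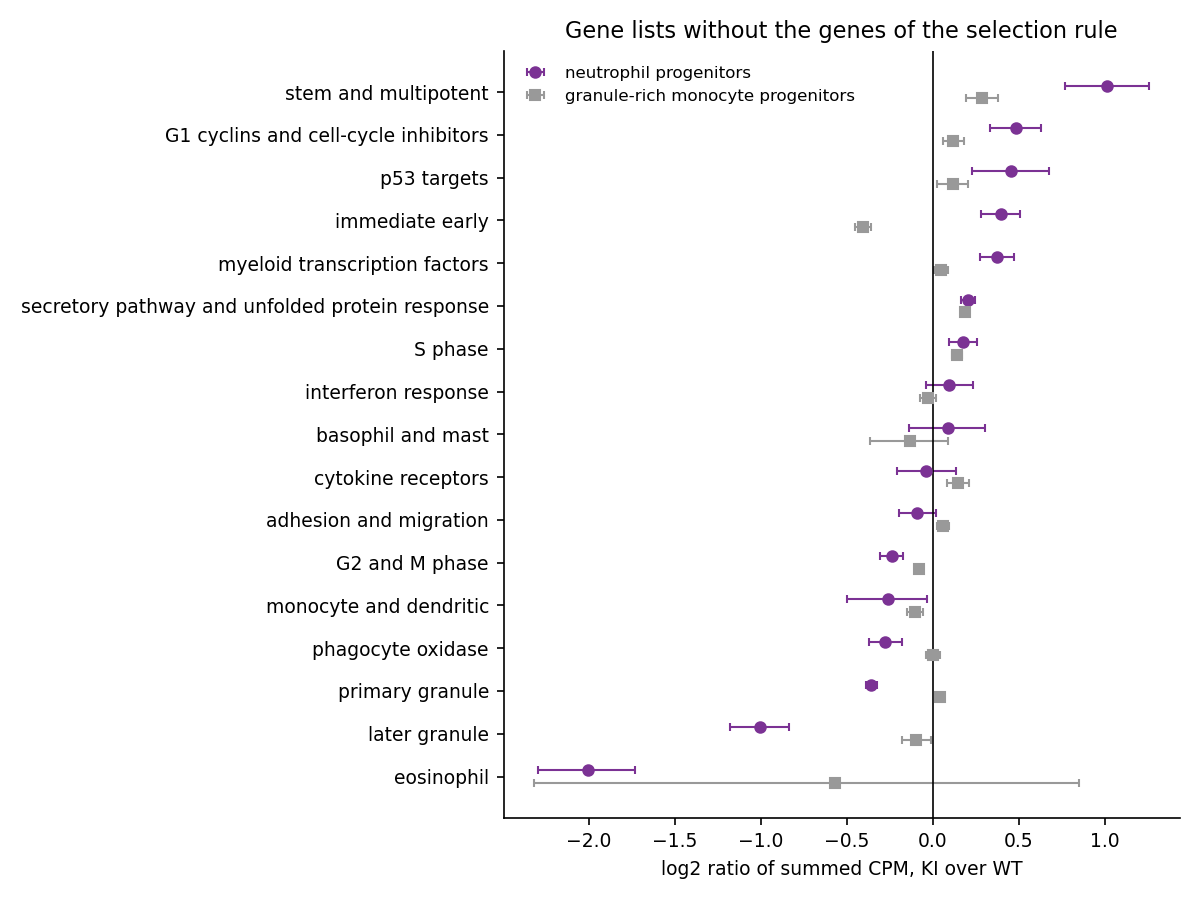
Log2 ratio of summed CPM, KI over WT (x axis), for gene lists without the genes of the rule and with at least 500 UMIs over both libraries (y axis), in neutrophil progenitors (purple circles) and granule-rich monocyte progenitors (grey squares). Lines are 95% intervals for counting error. Stem and multipotent genes stood at 1.01 and later granule genes at -1.003 in neutrophil progenitors, against 0.29 and -0.10 in monocyte progenitors.

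Several of the genes with the widest gaps were shared with the like cells. The genes with the ratio interval farthest from 0 were taken, without the genes of the rule, and 10 on the higher side and 9 on the lower side are given. Of the 9 on the lower side, 5 reached 20 CPM on average in both granule-rich monocyte progenitors and undecided cells, and 4 of these 5 were past 1.5-fold lower in both. Of all genes counted, 2.41% in granule-rich monocyte progenitors and 2.98% in undecided cells were. Apoe, a lipid carrier, had 1 UMI in KI and 219 in WT, a log2 ratio of -5.41 (-10.7 to -2.92), beside -4.70 in granule-rich monocyte progenitors, where it lay just under the level for counting. Hist1h2ap stood at 42.0 CPM in KI and 496 CPM in WT (-3.56), and Ndufa3, a subunit of respiratory complex I, at 133 CPM in KI and 523 CPM in WT (-1.97). Hist1h2ap, Ndufa3, Hist1h2ae and Gm10076 were the 4, and the histone genes and Gm10076 have near-identical copies between which counts can be split. The remaining lower ones were Wfdc21, Prss34 and Prg2, described above, and Ighm, the heavy chain of IgM, with 2 UMIs in KI and 116 in WT. Ighm had a log2 ratio of 0.00 in granule-rich monocyte progenitors, where Prss34 and Prg2 were at or near 0 in both libraries. In undecided cells Prss34 stood at 24.7 CPM in KI and 12.4 CPM in WT (0.99, 0.41 to 1.56), opposite in direction to neutrophil progenitors.

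On the higher side, 8 of 10 were counted in both like classes and 4 of these 8 were past 1.5-fold higher in both, where 2.42% of genes in granule-rich monocyte progenitors and 3.02% in undecided cells were. They were Gm47283 on the Y chromosome (2.24), Cdk2ap1 (1.502), Tuba1b, an alpha-tubulin (1.11), and Hsp90aa1, a cytosolic chaperone (0.98), the values being log2 ratios in neutrophil progenitors. Dach1 (1.61) was past 1.5-fold in both classes too, but under the level for counting in 1 of them. Ikzf2, the transcription factor Helios, stood at 98.1 CPM in KI and 25.9 CPM in WT in neutrophil progenitors (1.92, 1.31 to 2.52), beside a log2 ratio of -0.02 in granule-rich monocyte progenitors and 0.35 in undecided cells. In erythroid cells Ikzf2 stood at 43.8 CPM in KI and 12.6 CPM in WT (1.80, 1.61 to 1.98), so its gap was not limited to the neutrophil side. Dapp1, a signalling adaptor best known from B cells, stood at 213 CPM in KI and 80.5 CPM in WT (1.40, 1.02 to 1.77), beside 0.06 and 0.16 in those classes. Dusp2, a phosphatase of MAP kinases, stood at 88.8 CPM in KI and 28.2 CPM in WT (1.66, 1.03 to 2.26), beside 0.01 and 0.23. Within members of Prtn3 under 100 the ratios were nearer to 0, at 0.73 (0.10 to 1.37) for Ikzf2, 0.67 (0.23 to 1.10) for Dapp1 and 1.10 (0.34 to 1.86) for Dusp2. The difference between the cell classes was not tested for any gene.

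**Figure D5:**
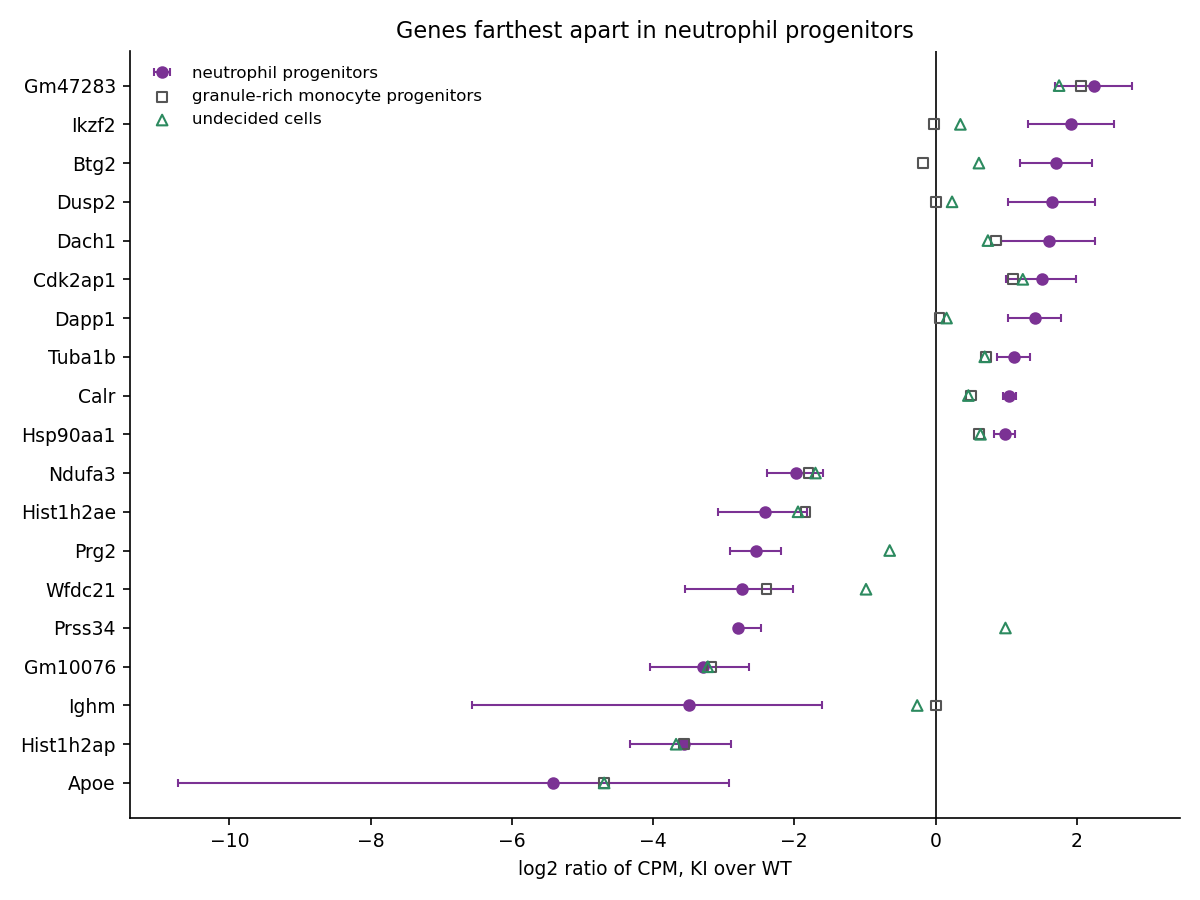
Log2 ratio of CPM, KI over WT (x axis), for 10 genes higher and 9 genes lower in KI that lay farthest from no difference in neutrophil progenitors (purple, with 95% intervals for counting error), and in granule-rich monocyte progenitors (open squares) and undecided cells (open triangles). Prss34 is drawn at the floor of 3 UMIs in KI, and a missing square marks a gene at 0 in KI and under the floor in WT. Apoe lies near -5 in all 3 classes, while Ikzf2, Dusp2 and Dapp1 lie farther from 0 in neutrophil progenitors than in the other 2 classes drawn.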

How the data were processed

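Each library was sequenced from the 3′ end of RNA in droplets. The authors deposited whole-number UMI counts for each gene and barcode, without normalization, made with Cell Ranger 3.1.0 per the file headers. The submitters' processing notes name mm10, the reagent kit is v2 by the labels, and how barcodes were called was not given in the sources used here. Depth per cell and library stands in the report.

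From there, UMIs of the selected cells were summed per library and scaled to CPM with Python 3.11.15, numpy 2.4.6 and scipy 1.17.1. A gene was counted with a mean of at least 20 CPM over both libraries, leaving out mitochondrial genes, Xist, Tsix and Y-linked marker genes, and was called past 1.5-fold. For a ratio, 0 UMIs in a library were replaced by 3. Doublets were kept, background RNA was not removed, and neither was estimated for the main values. The members, the 20 gene lists and the tests were chosen with earlier results of these data known, and the division by Prtn3 after seeing these values. Genes named are those of the rule and the markers, of each list up to 4 members richest in UMIs and those 2-fold or more apart (50 UMIs or more in the higher library), and the 10 in each direction farthest from no difference. The text gives part of them, and some are not reported here. Prss57, Ctsc, Cebpa, Hbb-bs, Hba-a1, Gata1, Camp and the members named to fill a small count were chosen after their values were seen. The counting was tested on simulated data. Gene positions are from GENCODE M21. Promoters of Cebpe and Wfdc21 were not printed. Alternatives were other thresholds, filters, scalings, thinning, doublet removal with Scrublet in scanpy 1.11.5, and strata of the members.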

Additional observations from a re-analysis of the deposited data

Results flagged for a closer look

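Summed log2 ratios of KI over WT lay on opposite sides of 0 in neutrophil progenitors and in granule-rich monocyte progenitors for primary granule genes and for immediate early genes, with intervals for counting error that did not reach 0. For primary granule genes the values were -0.36 in neutrophil progenitors and 0.04 in monocyte progenitors. For immediate early genes they were 0.39 in neutrophil progenitors and -0.41 in monocyte progenitors. Each rests on 1 library per genotype, and the difference between the cell classes was not tested. Without Prtn3, which took most of the gap, primary granule genes stood at -0.20 in neutrophil progenitors and 0.16 in monocyte progenitors. Within members of Prtn3 under 100 the ratios were -0.10 for primary granule genes without Prtn3 and 0.00 for immediate early genes. Within members of Prtn3 of 100 or more they were 0.16 for primary granule genes without Prtn3 and -0.33 for immediate early genes, on the same sides as in monocyte progenitors.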

How the results depend on the processing

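No paired analysis was possible because each genotype had 1 library. The share of neutrophil progenitors among kept cells kept its direction under the 6 alternatives to the cell filters and the rule, with log2 ratios of -2.27 to -1.67, except that it reached -2.90 with the neutrophil sum at 10 or more. That setting left 17 KI and 124 WT cells, put 1531 genes higher and 664 lower, and gave 1.87 for stem and multipotent genes, 0.28 for S phase, -0.80 for G2 and M phase, -0.11 for erythroid genes, a median of 1.21 for basophil and mast genes, 0.44 for Mcpt8, -0.047 for Vav1, 0.61 for Ctsc, -0.45 for Cdkn1b and -0.076 for Ifngr2. All values without a unit here are log2 ratios of KI over WT, of sums where a list is named. Genes past 1.5-fold numbered 2902 higher and 1130 lower with no filter, 274 and 134 at 50 CPM, and 524 and 527 when centred on the median gene. Primary granule genes stood at -0.30 with the stricter cell filter, -0.29 with Mpo+Elane of at least 100, -0.33 with the rule applied after thinning, -0.22 in members with S100a8+S100a9 under 20, -0.52 when centred, -0.46 with each cell weighted equally and -0.41 without the 2 richest cells of each library. In the same order of settings from thinning on, G2 and M phase genes stood at -0.40 after thinning, -0.40 when centred, -0.32 with equal weights and -0.36 without the richest cells. S phase stood at 0.016 when centred, stem and multipotent genes at 0.74 after thinning and later granule genes at -0.71 with S100a8+S100a9 under 20. The median of basophil and mast genes was 0.44 at 50 CPM and 0.75 with equal weights.

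The divisions of the members below, and lists without their largest genes, were added after seeing the data. Without the cells rich in Prg2, eosinophil genes stood at 2.35 (15 UMIs in each library), Prg2 at 1.93 (3 UMIs in KI and 4 in WT) and Prg3 at 2.35 (9 UMIs in each). Primary granule genes without Prtn3 stood at -0.20, and sums of that list by Prtn3 include the gene of the division. In members with Cebpe of 5 or more, 536 genes were lower, and primary granule genes stood at -0.13, later granule genes at -0.73, stem genes at 0.55, G2 and M phase at -0.011, Cpa3 at -0.59 and Angpt1 at -0.078. In members with Cebpe under 5 (12 KI cells), 650 genes were lower, and primary granule genes stood at 0.11, later granule genes at -0.57, erythroid genes at -0.37, stem genes at -0.70 with a median of -0.58, S phase at 0.041 and G2 and M phase at -0.43. Genes that turned there were Elane (0.13), Ly6c2 (0.041), Cd34 (-0.83), Ifitm1 (-0.58), Msi2 (-0.98), Adgrl4 (-0.38), Cpa3 (-0.67), Btg2 (-1.27), Dapp1 (-0.42), Ier3 (-0.19), Uhrf1 (-0.21), Myc (-0.12) and Sox4 (-1.42). With Prtn3 of 100 or more, 618 genes were lower, and primary granule genes stood at 0.10, later granule genes at -0.65, erythroid genes at -0.13, eosinophil genes at 1.02, stem genes at 0.29, G2 and M phase at -0.70, Hp at 0.038, Ly6c2 at 0.025, Cd34 at -0.32, Prg3 at 2.02, Ier3 at -0.92, Il3ra at -0.10, Ctsc at 0.25, Mndal at -0.82, Uhrf1 at -0.35 and Sox4 at -0.55. With Prtn3 under 100, 551 genes were lower, and primary granule genes stood at -0.012, later granule genes at -0.50, stem genes at 0.28, S phase at 0.020, G2 and M phase at 0.011, Cpa3 at -0.52, Hoxa9 at -0.039 and Angpt1 at -0.23. Later granule genes were lower in KI in each division by Cebpe and by Prtn3. Cebpe and S100a8+S100a9 are genes of the rule, so divisions by them are a description only. With S100a8+S100a9 under 5, later granule genes stood at -0.59 (-0.81 to -0.37). From 5 to under 50 they stood at -0.23 (-0.55 to 0.08), an interval that reaches 0. Of 1226 values of named genes past 1.5-fold, 35 changed sign. Why values changed was not tested beyond the change in members each setting makes. With 57 KI cells, ratios of genes with few UMIs have wide intervals.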
